A study of Mus musculus with 9 samples.

Results

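Uterine transcripts after exposure to medium in which arrested human embryos had been cultured were compared with those after the same culture medium without embryos. The comparison took 6 of the 9 RNA-seq libraries of the series, 3 labelled arrested embryo conditioned medium and 3 labelled control. A gene was measured by its FPKM (fragments per kilobase of transcript scaled to the mapped fragments of the library) summed over its annotated transcripts. A gene was tested where these 6 libraries averaged 1 FPKM or more, as held for 13350 of the 35930 genes listed in every library. All animals were C57BL/6 females, 25 days old per the sample labels (21 days in the design text), so prepubertal. All had been primed with progesterone (1 mg, a single dose) and with estradiol (10 mg/kg daily over 3 days), and each uterine horn received 50 µl of medium. The arrested embryo medium was a pool from 18 embryos. The 3 remaining libraries, given pooled medium of 9 developmentally competent embryos, entered the fit and are shown beside the results. The medium of several embryos was pooled, the recipients were hormone-primed and not pregnant, and no label states that the replicates of a group were different animals. The p-values then measure only how these samples spread, which may be technical.

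The mouse uterus is prepared for the embryo by estradiol, which drives secretion and growth of the epithelium, and by progesterone, which makes the stroma able to decidualize. Cells whose endoplasmic reticulum (ER) is overloaded with unfolded protein answer through 3 sensors, IRE1 (Ern1), PERK (Eif2ak3) and ATF6, which raise ER chaperones such as BiP (Hspa5), degradation factors and, in prolonged stress, the pro-apoptotic factor CHOP (Ddit3). Whether secretions of poor embryos alter the uterus, and ER stress in particular, is the question the series addresses.

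Markers of the uterus were present, since all 16 epithelial, all 12 stromal and 13 of 15 smooth muscle markers passed the filter. Depth in reads is unknown. Coverage summed over transcripts came to 1303 to 1766 Mb in the control libraries and 1635 to 1936 Mb in the arrested libraries. In a principal component analysis, the first axis held 17.1% of the variance and set arrested library 3 (92.3) away from the other 8 libraries (-20.3 to -0.4). Arrested library 2 carried adipose transcripts, with adipocyte markers summing to 1628 FPKM beside 210 to 366 FPKM in the other 5 libraries of the comparison. An FPKM of 0 can be a failed estimate: of the genes averaging 5 FPKM or more, 264 to 324 were listed at 0 in each library, and 55.7 to 63.6% of these had "yes" in a last, unnamed column, which holds yes or no as the full read support field of Cufflinks does. A second value was therefore set beside each FPKM, the deposited coverage over the gene's exons in FPKM units (exon coverage). Summing over transcripts makes it depend less on how reads were divided among those sharing these exons. It is still built from coverage given per transcript after that division, so it is not independent of FPKM. It adds the depth of every deposited transcript on the same strand that overlaps those exons, assembled ones and those of other genes included, and it is 0 where all of these were at 0. Exon coverage equalled FPKM within 1% in all 6 libraries for 2336 of the genes tested (17.5%), and for such a gene it is no second measure. For other genes, among them Lcn2, Gadd45g, Efna1, Ptgs1 and Sec61a1, it was close to a fixed fraction of FPKM in all 6 libraries. For those it is no second measure either, and they were not counted.

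By limma, 7 genes passed an adjusted p of 0.05 (0.0524% of the genes tested), 4 rose and 3 fell after arrested embryo medium, and 6 of the 7 were listed at 0 throughout a group. At an unadjusted p under 0.05 there were 711 genes (5.33%), 284 higher and 427 lower. The median difference over all genes was -0.02 on the log2(FPKM + 1) scale, on which all differences here are given and which understates genes of low FPKM. The 3 arrested libraries all lay below the 3 control libraries for 720 genes (5.39%) and all above for 471 (3.53%). In both FPKM and exon coverage they lay below for 410 genes (3.07%) and above for 268 (2.01%), of which 86 and 90 had equal values in both. Genes with no such overlap are called apart here. These shares are the background against which each gene list below is read.

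The gene of smallest p was Snord23, a box C/D small nucleolar RNA inside the ribosome biogenesis gene Gltscr2, on the minus strand of NCBIM37 7:16524111-16524219. It was listed at 0 in all 6 control and competent libraries and at 319, 357 and 315 FPKM in arrested libraries 1 to 3 (limma adjusted p = 1.1e-07). SCARNA21, a small Cajal body RNA at 2:103880826-103880964 on the plus strand, was likewise listed at 0 in those 6 libraries and at 23.8, 53.3 and 70.6 FPKM after arrested embryo medium (limma adjusted p = 0.0016). Other copies of SCARNA21 are annotated, so its reads could belong to another. The genomic sequences of these called RNAs, read from NCBIM37 and written 5′ to 3′, show how short the measured features are: 109 and 139 bases. Capitals mark the first TGATGA (C box) and last CTGA (D box) letters of Snord23 and the last ACA letters of SCARNA21.
Snord23: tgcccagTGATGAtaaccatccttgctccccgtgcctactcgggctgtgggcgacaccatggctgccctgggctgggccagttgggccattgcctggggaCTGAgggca
SCARNA21: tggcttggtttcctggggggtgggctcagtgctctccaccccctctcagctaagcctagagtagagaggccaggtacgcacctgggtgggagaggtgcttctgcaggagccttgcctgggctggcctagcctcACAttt
FPKM divides by length, and for features near the length of a sequenced fragment it depends strongly on how that length was corrected. The correction used was not given in the sources used here.

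Among protein-coding genes, Sprr2g, a small proline-rich protein of the epithelial surface (ENSMUSG00000046203, 3:92177837-92179151), was listed at 0 in all control and competent libraries and at 56.7, 64.2 and 70.8 FPKM in the arrested libraries (limma adjusted p = 4.6e-06). Its last column read "yes" in all 9 libraries, those at 0 included. The Sprr2 genes are near-identical copies that share reads, so this call is uncertain. Its neighbour Sprr2f, an estradiol target of high level, lay the other way: 675, 549 and 1002 FPKM in controls and 513, 480 and 170 FPKM in the arrested libraries (difference -1.05 ± 0.44 SE, limma adjusted p = 0.89). Sprr2f was named after its values were seen.

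Syce2, a protein of the meiotic synaptonemal complex, stood at 10.0, 10.7 and 6.59 FPKM in controls, at 10.7, 13.9 and 16.4 after competent embryo medium, and was listed at 0 in the 3 arrested libraries, again with "yes" in the last column of every library (limma adjusted p = 0.0021). Ube2v1, a ubiquitin-conjugating enzyme variant, was listed at 0 in the 3 controls and at 15.2, 38.3 and 36.8 FPKM after arrested embryo medium (limma adjusted p = 0.0033). Its exon coverage overlapped, at 16.8, 17.7 and 26.7 in controls and 18.8, 24.9 and 24.3 in the arrested libraries. Ubl4, a ubiquitin-like protein of the pathway that brings tail-anchored proteins to the ER, was the called gene with no zero in any library. Its FPKM were 74.8, 71.0 and 88.0 in controls and 30.3, 26.9 and 23.7 in the arrested libraries (difference -1.5 ± 0.14, limma adjusted p = 0.012), with competent libraries at 25.1, 21.7 and 24.8. Exon coverage of Ubl4 was 27.0, 26.1 and 27.1 in controls and 26.4, 23.5 and 20.7 in the arrested libraries, so the groups overlapped (exon difference -0.18). Neither Ube2v1 nor Ubl4 passed the threshold in exon coverage. The remaining called gene, lower after arrested embryo medium, is known only by an identifier.

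**Figure D1:**
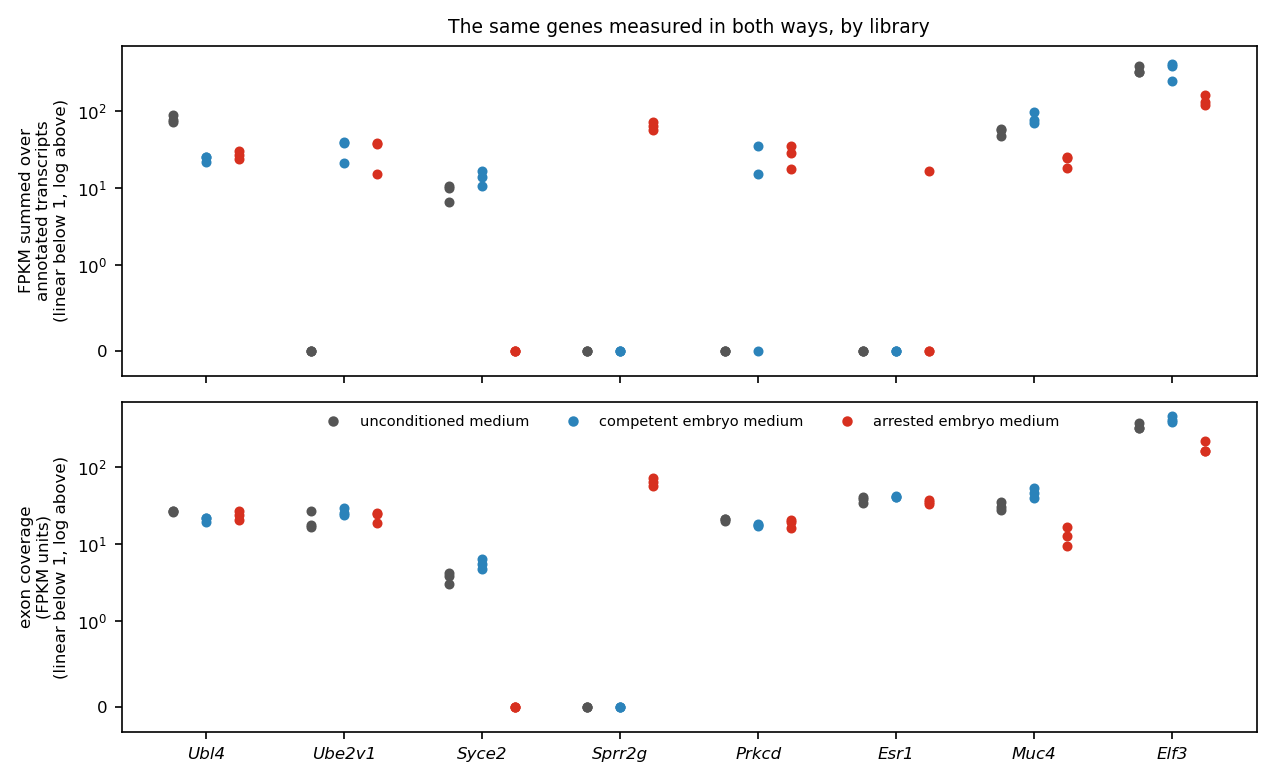
FPKM summed over annotated transcripts (top) and exon coverage in FPKM units (bottom) of 8 genes in each library, on axes that are linear below 1 and logarithmic above. The groups of Ubl4, Ube2v1 and Prkcd separate in FPKM and overlap in exon coverage, those of Muc4 and Elf3 separate in both, and Sprr2g and Syce2 have zeros in both.

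When the test was run on exon coverage, 6 of 14148 genes passed (0.0424%), among them Snord23, Sprr2g, SCARNA21 and Syce2. For Snord23, Sprr2g and SCARNA21 exon coverage equalled FPKM in every library, so it could not differ. The other calls of that test were March2 and Rapgefl1, named after their values were seen. Exon coverage of March2 was 0 in controls and 5.89, 4.53 and 7.69 in the arrested libraries, while its FPKM was listed at 0 in all 9 libraries. Exon coverage of Rapgefl1, a guanine nucleotide exchange factor-like protein, was 9.88, 10.9 and 10.0 in controls and 4.45, 5.69 and 4.62 in the arrested libraries (difference -0.93 ± 0.11, limma adjusted p = 0.045). Its FPKM overlapped, at 8.59, 20.7 and 9.36 in controls and 6.35, 6.66 and 9.87 in the arrested libraries. With genes at 0 in any library left out, an alternative added after seeing the data, exon coverage gave 0 genes past the threshold by limma and 849 at an unadjusted p under 0.05, and the FPKM test gave 1 gene, Ubl4.

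Among genes that did not pass the threshold, 10 of those named for small p lay lower after arrested embryo medium, and the groups were apart in both measures for each. For Ddit4 and Tpm3-rs7 the measures were equal. For Lcn2 and Gadd45g exon coverage was close to a fixed fraction of FPKM, so it was no second measure. Muc4, a mucin anchored in the membrane of epithelial cells (ENSMUSG00000079620, 16:32735972-32782477), stood at 58.2, 55.5 and 46.4 FPKM in controls and 24.9, 24 and 18.1 FPKM in the arrested libraries (difference -1.22 ± 0.18, limma adjusted p = 0.19). Every arrested library lay below every control, in exon coverage too (34.5, 29.8 and 27.8, then 12.5, 16.5 and 9.46). Elf3, an epithelial ETS transcription factor (1:137150151-137155049), was at 317, 375 and 319 FPKM in controls and 119, 130 and 160 in the arrested libraries (-1.30 ± 0.21, limma adjusted p = 0.29). Lcn2, a secreted lipocalin that binds bacterial siderophores, was at 2614, 2002 and 2419 FPKM in controls and 1301, 872 and 624 in the arrested libraries (-1.39 ± 0.25, limma adjusted p = 0.49). Lcn2 passed without arrested library 1 (limma adjusted p = 0.029) and with quantile normalization (0.016). In the other 22 of 24 alternatives Lcn2 did not pass, with limma adjusted p up to 0.98. Muc4 and Lcn2 also lay below the competent libraries, which were at 69.0, 96.0 and 76.5 FPKM and at 3635, 3904 and 4050 FPKM.

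The other 7 of these genes have various roles. Ddit4, an inhibitor of mTORC1 that many stresses induce (10:59412423-59414518), was at 77.7, 102 and 112 FPKM in controls and 51.8, 52.6 and 47.3 in the arrested libraries (-0.91 ± 0.15, limma adjusted p = 0.36). Without control library 1 it passed (limma adjusted p = 0.042). In 23 of 24 alternatives Ddit4 did not pass, with limma adjusted p up to 0.9. Gadd45g, a growth arrest gene, was at 63.7, 67.6 and 56.3 FPKM in controls and 37.0, 40.8 and 34.7 in the arrested libraries (-0.72 ± 0.13, limma adjusted p = 0.62). The clock repressor Bhlhe40 was at 54.7, 71.6 and 47.1 FPKM in controls and 35.0, 29.3 and 27.0 in the arrested libraries, with limma adjusted p = 0.65. The transcription factor Sox4 had the widest gap of these genes, at 44.9, 49.6 and 53.7 FPKM in controls and 16.6, 7.38 and 11 in the arrested libraries (-2.05 ± 0.41, limma adjusted p = 0.65). Its competent libraries scattered, at 81.7, 44.8 and 25.6 FPKM. The cytoskeletal tropomyosin Tpm3 was at 252, 256 and 273 FPKM in controls and 137, 181 and 142 in the arrested libraries, and its retrocopy Tpm3-rs7 differed alongside it (-0.65 ± 0.13). The transcripts of Tpm3 and Tpm3-rs7 are near-identical, so the values of either are uncertain. Gtf3c2, a subunit of a polymerase III factor, was at 32.4, 43.9 and 35.4 FPKM in controls and 18.7, 21.3 and 23.1 in the arrested libraries, close to the competent libraries (20.3, 23.8 and 20.3).

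Not past the threshold either, genes at higher values after arrested embryo medium included Ankrd29, at 3.51, 7.44 and 5.93 FPKM in controls and 27.8, 19.9 and 27.2 in the arrested libraries (2.0 ± 0.27, limma adjusted p = 0.13). Arrdc3, an arrestin-like adaptor that sends membrane receptors to degradation, was at 17, 13.6 and 17.3 FPKM in controls and 28.8, 27.1 and 40.3 in the arrested libraries (0.95 ± 0.19, limma adjusted p = 0.65). Entpd5, an ER nucleotidase that aids glycoprotein folding, was at 7.99, 8.0 and 8.78 FPKM in controls and 13.7, 14.5 and 20 in the arrested libraries (0.86 ± 0.17, limma adjusted p = 0.65). It was at 10.4, 10.7 and 12.4 FPKM after competent embryo medium. All 3 of these genes were apart from control in both measures. Cd83, found on the surface of mature dendritic cells, was at 3.00, 3.21 and 3.60 FPKM in controls and 7.59, 6.26 and 6.89 in the arrested libraries (limma adjusted p = 0.65), above its competent libraries at 1.39, 1.01 and 1.27. The ephrin ligand Efna1 was at 13.4, 13.4 and 16 FPKM in controls and 23.3, 21.8 and 30.9 in the arrested libraries, and the purine enzyme Gmpr at 37.6, 34.8 and 37.2 and then 62.5, 47.3 and 73.0. Coch, a matrix protein, was at 4.01, 1.60 and 2.17 FPKM in controls and 8.94, 8.83 and 30.0 in the arrested libraries, its highest value in arrested library 3. Prkcd, a protein kinase C, was listed at 0 in controls and at 28.3, 35.2 and 17.7 FPKM after arrested embryo medium, and its exon coverage overlapped between the groups (21.2, 20.9 and 19.9 against 20.7, 19.3 and 15.9).

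**Figure D2:**
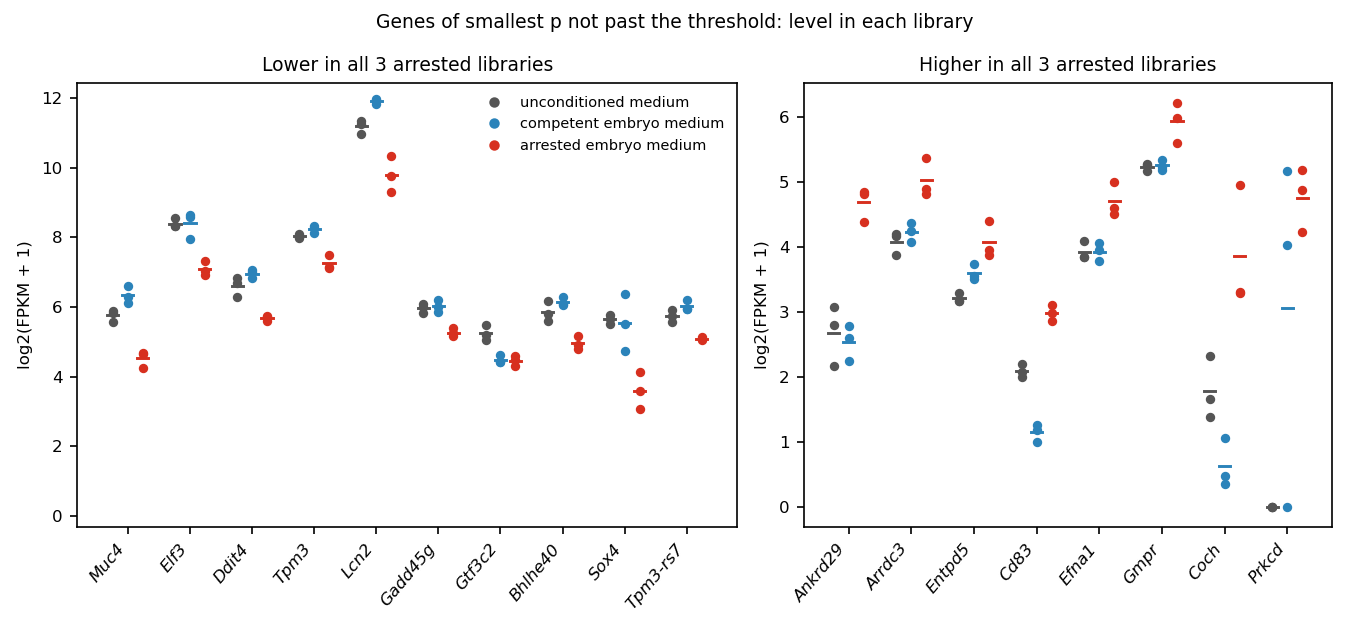
Level of 18 genes of smallest unadjusted p that did not pass the threshold, as log2(FPKM + 1) in each library (points) with group means (bars), for genes lower (left) and higher (right) in the arrested libraries. Arrested and control points do not overlap for any gene shown, as the naming rule required.

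Estradiol-responsive uterine genes held the largest share of members apart from control among the lists with at least 10 tested members. This list was chosen with earlier results of these data known, which already showed the list lower, so its direction is not independent support. Of 34 tested members of 35, 25 were lower and 9 higher after arrested embryo medium (median -0.35, beside -0.02 over all genes). By limma, 0 passed the threshold and 11 of the 34 had an unadjusted p under 0.05, beside 5.33% of all genes. In all, 10 were lower and apart in both measures, 29.4% of those tested beside 3.07% of all genes, and 0 were higher and apart beside 2.01%. For Clca3, Sprr2f and Gjb2, among these 10, the measures were equal. For Lcn2, also among them, exon coverage was close to a fixed fraction of FPKM. Without arrested library 1, 2 or 3 in turn, the lower members apart were 12, 12 and 11, beside 7.54%, 9.08% and 6.08% of all genes. These counts could not fall below 10, since members apart with all 3 arrested libraries stay apart with fewer. They therefore do not test dependence on a library. The list medians without library 1, 2 or 3 were -0.35, -0.46 and -0.19.

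Besides Muc4 and Lcn2, the members apart in both measures included Padi1, an enzyme that turns arginine residues into citrulline, at 285, 272 and 311 FPKM in controls and 177, 177 and 89.3 in the arrested libraries (-1.03 ± 0.25, limma adjusted p = 0.81). Cdkn1a, which encodes the cell cycle inhibitor p21, was at 7.15, 8.24 and 10.4 FPKM in controls and 2.98, 4.84 and 5.75 in the arrested libraries (-0.82 ± 0.24, limma adjusted p = 0.89). Except in arrested library 2, exon coverage of Cdkn1a was close to a fixed fraction of FPKM, so it added little. The other members that were apart, named after their values were seen, were Muc1, Padi2, Clca3, Sprr2f, Gjb2 and Ramp3. The membrane mucin Muc1 was at 205, 205 and 247 FPKM in controls and 160, 105 and 43.6 in the arrested libraries. Padi2 was at 119, 127 and 116 FPKM in controls and 66.8, 59.7 and 14.1 in the arrested libraries, and without arrested library 3 it passed (-0.92, limma adjusted p = 0.028). Padi2 passed in no other alternative. The connexin Gjb2 was at 76.5, 91.5 and 105 FPKM in controls and at 76.0, 36.0 and 12.1 in the arrested libraries, so arrested library 1 lay just under the lowest control. For Muc1, Padi2, Clca3, Gjb2 and Sprr2f the lowest of the 3 arrested values was that of library 3, as it was for Muc4, Lcn2 and Padi1. For Cdkn1a the lowest was that of library 1.

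Other estradiol targets overlapped between the groups. The milk iron-binding protein Ltf was at 2528, 2262 and 1761 FPKM in controls and 1885, 1145 and 1137 in the arrested libraries (-0.68 ± 0.24, limma adjusted p = 0.89). Complement C3 was at 1572, 1594 and 2002 FPKM in controls and 765, 1166 and 1604 in the arrested libraries. Cyp26a1, the retinoic acid hydroxylase, stood high in a single library: 2.59, 1.93 and 6.14 FPKM in controls and 12.7, 5.06 and 299 in the arrested libraries. The receptors could not be read from FPKM, since Esr1 was listed at 0 in 5 of the 6 libraries. By exon coverage Esr1 was at 38.7, 40.0 and 33.6 in controls and 32.6, 34.9 and 36.7 in the arrested libraries. Pgr was at 23.8, 24.6 and 22.6 in controls and 24.9, 32.5 and 12.8. Neither receptor was apart.

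Epithelial markers were divided beside these genes. Of 16 tested, 5 were higher and 11 lower (median -0.17), and their summed FPKM was 3696, 3810 and 2997 in controls and 3746, 2561 and 3054 in the arrested libraries. Among them, 3 (18.8%) were lower and apart in both measures, beside 3.07% of all genes. These were Elf3, Cdh1 (E-cadherin, at 137, 151 and 133 FPKM, then 123, 104 and 112) and the splicing factor Esrp1 (31.9, 30.1 and 28.9 FPKM, then 26.1, 21.9 and 25.2). The keratins Krt8, Krt18 and Krt19 overlapped between the groups. Without arrested library 2, 4 of the 16 epithelial markers (25.0%) were higher and apart in both measures, beside 4.94% of all genes. In that setting 3 (18.8%) were lower and apart, beside 9.08%. Without arrested library 1 or 3, 0 were higher and apart. In whole uterus, fewer cells of a type and less RNA per cell cannot be told apart.

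**Figure D3:**
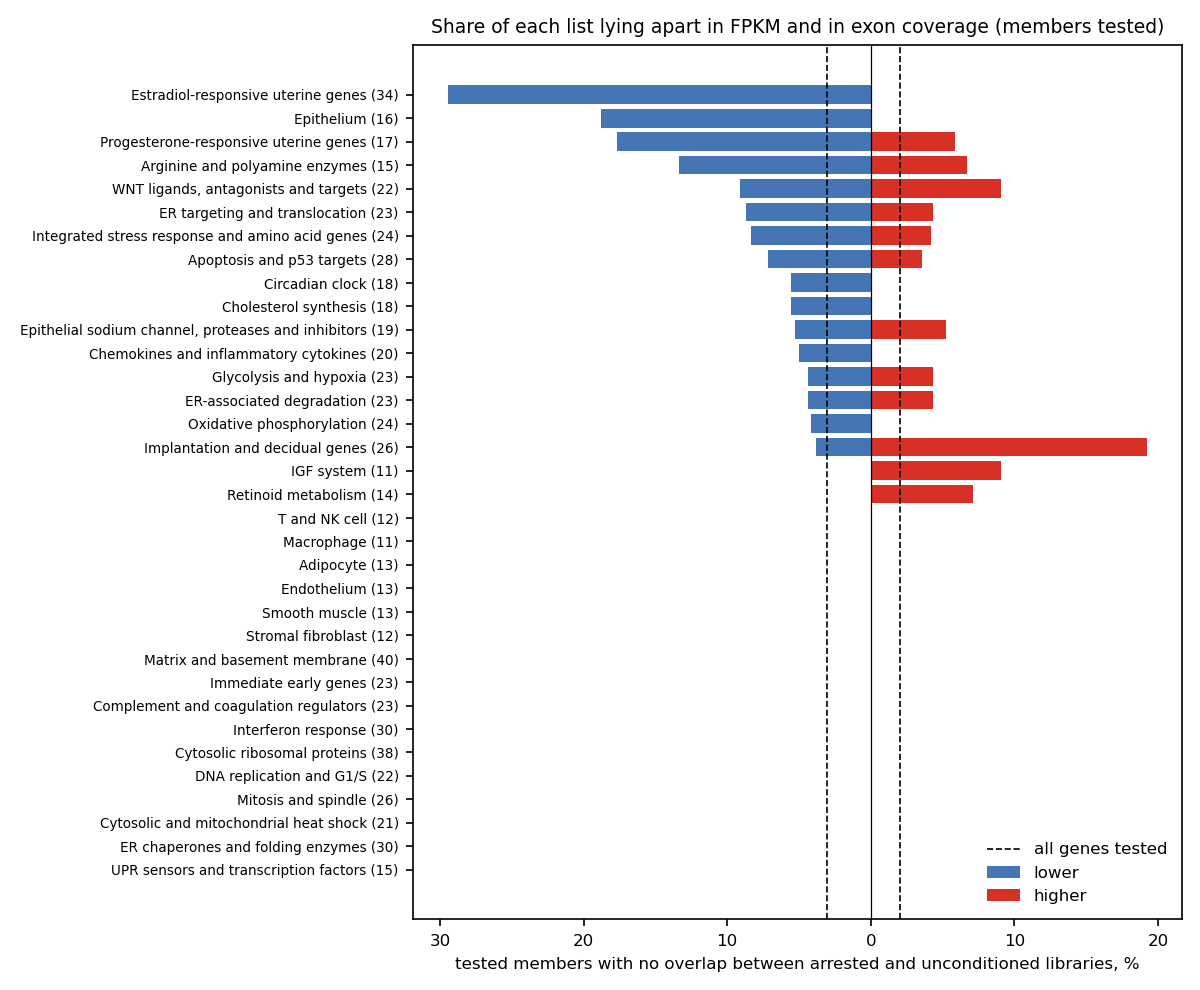
Share of the tested members of each list of at least 10 whose arrested and control libraries did not overlap in FPKM and in exon coverage, drawn to the left where lower and to the right where higher after arrested embryo medium, with the shares over all genes tested (3.07% and 2.01%) as dashed lines. The estradiol-responsive list reaches 29.4% on the lower side and the implantation list 19.2% on the higher side, while the ER stress sensors and the ER chaperones have no bar with all 3 arrested libraries.

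Implantation and decidual genes divided evenly, with 13 of 26 tested members higher and 13 lower (median 0.01) and 0 past the threshold. In all, 5 were higher and apart in both measures, 19.2% of those tested beside 2.01% of all genes, and 1 (Cdh1) was lower. For Ptgs2 the measures were equal, and for Ptgs1 exon coverage was close to a fixed fraction of FPKM. Both of these cyclooxygenases, which make the prostaglandins needed for implantation, were among the 5 higher members. Ptgs2 was at 0.581, 0.542 and 0.538 FPKM in controls and 1.27, 2.33 and 5.47 in the arrested libraries (1.24 ± 0.39, limma adjusted p = 0.89), a low level throughout. Ptgs1 was at 13.4, 13.5 and 8.51 FPKM in controls and 18.9, 18.0 and 23.2 in the arrested libraries (0.73 ± 0.23, limma adjusted p = 0.89). Wnt11, a non-canonical WNT ligand, was at 16.1, 15.7 and 8.04 FPKM and then 35.5, 30.6 and 82.5, and Hdc, the enzyme that makes histamine, at 24.6, 17.1 and 15.9 and then 35.8, 30.5 and 155. The insulin-like growth factor binder Igfbp3 was at 30.8, 25.6 and 31.9 FPKM in controls and 39.7, 63.5 and 138 in the arrested libraries. Except in arrested library 2, exon coverage of Igfbp3 was close to a fixed fraction of FPKM, so it added little. For all 5 the highest value was that of arrested library 3. Without that library 5 members were higher and apart, beside 6.76% of all genes. Genes apart with all 3 arrested libraries stay apart with fewer, so this count does not test the part of library 3. The list median without it was -0.05.

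Of the implantation signals that hormones induce, Lif, the cytokine on which mouse implantation depends, was at 1.01, 2.32 and 0.720 FPKM in controls and 1.08, 1.23 and 0.473 in the arrested libraries. Hbegf, the growth factor at the attachment site, was at 10.3, 8.21 and 10.2 FPKM and then 10.0, 4.89 and 13.2. The groups overlapped for both. Scnn1a, the alpha subunit of the epithelial sodium channel, was at 0.863, 0.750 and 1.4 FPKM in controls and 2.03, 1.48 and 1.78 in the arrested libraries, apart in both measures and with limma adjusted p = 0.89. Its level was low. Exon coverage of Scnn1a equalled FPKM in the controls and in arrested libraries 1 and 3, and was 1.79 in arrested library 2, so it added little. Sgk1, the kinase that keeps this channel at the surface, was at 97.2, 89.7 and 51.0 FPKM and then 34.5, 90.6 and 39.2, and its exon coverage did not follow its FPKM (18.1, 17.7 and 7.53, then 17.3, 16.2 and 19.7).

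No gene of the ER stress lists passed the threshold by limma (0 of 15 sensors and transcription factors, 0 of 30 chaperones and 0 of 23 degradation factors). At an unadjusted p under 0.05 there were 2, both degradation factors, beside 5.33% of all genes. Of 15 tested sensors and transcription factors, 2 were higher and 13 lower after arrested embryo medium, with a median of -0.07. Among 30 ER chaperones and folding enzymes, 12 were higher and 18 lower (median -0.04), and among 23 degradation factors 13 were higher and 10 lower (median 0.01). In exon coverage the chaperones divided 15 to 15. The direction of these lists turned on single libraries: without arrested library 1 the sensor list had 9 higher and 6 lower, and without arrested library 3 the chaperones had 4 higher and 26 lower (median -0.19). Without arrested library 3, 5 of 15 sensors and transcription factors (33.3%) and 5 of 30 chaperones (16.7%) were lower and apart in both measures, beside 6.08% of all genes. Without arrested library 1 or 2, at most 1 member of either list was apart in a direction. The smallest adjusted p in each of the 3 lists was 0.89 (limma).

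The sensors themselves overlapped between the groups. Ern1 was at 8.19, 7.11 and 6.27 FPKM in controls and 3.75, 10.6 and 8.79 in the arrested libraries, Eif2ak3 at 6.65, 3.43 and 4.56 and then 2.73, 4.63 and 6.08, and Atf6 at 7.98, 4.70 and 4.30 and then 5.49, 5.07 and 5.78. Of the transcription factors they control, Xbp1 was at 90.0, 81.2 and 96.6 FPKM in controls and 80.8, 79.6 and 156 in the arrested libraries, and Atf4 at 88.3, 91.5 and 91.4 and then 78.3, 81.7 and 102. Xbp1 was thus above the controls in arrested library 3 alone, and its splicing cannot be read from gene values. Ddit3 was at 19.3, 17.4 and 29.3 FPKM in controls and listed at 0 in arrested library 1, beside 24.1 and 21.0 in the others. Ppp1r15a, which restores translation after PERK signalling, was the sensor-list member with the smallest p: 6.62, 7.28 and 8.06 FPKM in controls and 8.67, 14.5 and 11 in the arrested libraries (0.55 ± 0.24, limma adjusted p = 0.89), with overlap in exon coverage.

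Hspa5, the chaperone whose rise is the common marker of ER stress (ENSMUSG00000026864, 2:34627490-34632051), was at 406, 338 and 326 FPKM in controls and 136, 302 and 334 in the arrested libraries (-0.57 ± 0.37, limma adjusted p = 0.89). Its exon coverage was 162, 148 and 115 and then 99.0, 109 and 141. Hsp90b1, the ER paralog of HSP90, was at 226, 205 and 148 FPKM in controls and 159, 178 and 225 in the arrested libraries (-0.03 ± 0.20, limma adjusted p = 1), and calreticulin (Calr), a lectin chaperone, at 272, 334 and 235 and then 217, 198 and 256. Dnajb9, an IRE1-XBP1 target, was at 15.2, 14.9 and 18.5 FPKM and then 18.9, 17 and 31.9 (0.41 ± 0.23). In all 4 the groups overlapped, and arrested library 3 had the highest of the arrested values. Herpud1, a degradation factor, was at 12, 39.8 and 42.1 FPKM in controls and 27.4, 52.1 and 34.1 in the arrested libraries. Its partner Derl1 was higher and apart by a small margin, at 28.5, 28.9 and 27.9 FPKM and then 29.2, 32.7 and 35.5, and Ufd1l was lower and apart. These single members of 23 (4.35% in each direction) are close to the background. For Derl1 the measures were equal, and exon coverage of Ufd1l closely followed its FPKM, so neither had a separate second measure. Rnf5, the member of smallest p, was lower and apart in FPKM alone (-0.50 ± 0.15, limma adjusted p = 0.89).

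**Figure D4:**
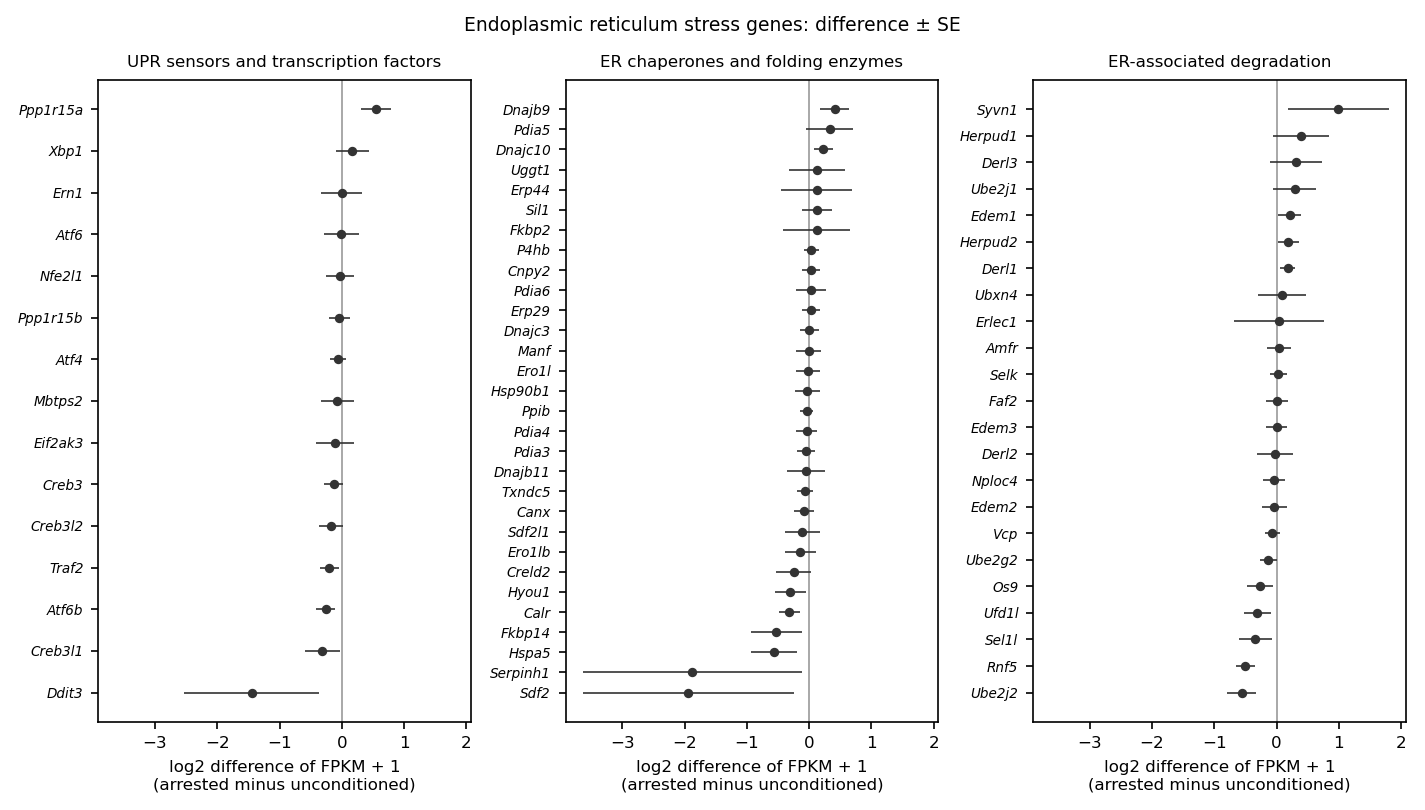
Log2 difference of FPKM + 1 between arrested embryo medium and unconditioned medium, with its standard error, for the tested members of 3 ER stress lists. Most members lie within 0.5 of zero, and the wide bars of Ddit3, Sdf2, Serpinh1 and Syvn1 come with zeros in some libraries.

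The ER stress response element is the promoter motif through which ATF6 and XBP1 act, CCAAT and CCACG spaced by 9 bases (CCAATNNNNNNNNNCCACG). It was searched on both strands in the 250 bases before the start of each gene, in RefSeq promoters on GRCm38.p6. Of all 32851 promoters 0.113% held it, and 35 of 27025 genes (0.13%) had it in at least 1 promoter. So did 7 of 24 ER chaperone genes matched (29.2%), 2 of 16 degradation genes (12.5%) and 0 of 13 sensor and transcription factor genes. These 9 genes are the ones whose promoters carry the letters of the classical response, so their sites are shown, 5′ to 3′ on the strand that reads as the motif, with the fixed bases in capitals and positions on GRCm38.p6.
Calr (chr8:84847075-84847093, plus strand): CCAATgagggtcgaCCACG
Canx (chr11:50325800-50325818, minus strand): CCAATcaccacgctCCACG
Creld2 (chr15:88819520-88819538, minus strand): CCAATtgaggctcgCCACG
Dnajc3 (chr14:118937827-118937845, plus strand): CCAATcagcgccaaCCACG
Hsp90b1 (chr10:86705533-86705551, plus strand): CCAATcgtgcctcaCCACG
Hsp90b1 (chr10:86705638-86705656, minus strand): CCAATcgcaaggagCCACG
Hspa5 (chr2:34772025-34772043, plus strand): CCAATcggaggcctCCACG
Pdia6 (chr12:17266491-17266509, plus strand): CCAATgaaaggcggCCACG
Derl3 (chr10:75893242-75893260, minus strand): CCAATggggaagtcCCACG
Syvn1 (chr19:6046532-6046550, plus strand): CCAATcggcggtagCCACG
The 9 genes with a site lay on both sides of 0 after arrested embryo medium. Their median difference was -0.03, with Syvn1 (0.99 ± 0.81, listed at 0 in control library 3), Derl3 (0.31 ± 0.42) and Pdia6 (0.03 ± 0.24) higher, and Calr (-0.32 ± 0.17), Creld2 (-0.25 ± 0.28), Canx (-0.09 ± 0.16), Hsp90b1 and Hspa5 lower. Dnajc3 was at 0.00 ± 0.15. Creld2, Derl3, Syvn1, Canx, Pdia6 and Dnajc3 were named for their sites. The window of Hspa5 (2:34771840-34772089, plus strand) shows the site within its promoter.
Hspa5: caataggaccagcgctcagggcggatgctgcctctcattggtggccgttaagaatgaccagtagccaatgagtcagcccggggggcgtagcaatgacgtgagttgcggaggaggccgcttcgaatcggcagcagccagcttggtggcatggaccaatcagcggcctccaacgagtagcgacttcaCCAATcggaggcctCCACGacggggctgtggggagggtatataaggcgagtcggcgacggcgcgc
A CCAAT box alone (CCAAT, which the longer motif contains) was in 33.8% of all promoters. The full estrogen response element (GGTCANNNTGACC) was in 0.0639% of promoters. By gene, 0.0666% of all genes and 0 of 32 estradiol list genes had it, which says only that these letters are not in these windows.

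Related stress programs were also divided. Of 24 tested genes of the integrated stress response and amino acid supply, 8 were higher and 16 lower (median -0.09). In both measures, 1 was higher and apart (4.17%, beside 2.01% of all genes) and 2 lower and apart (8.33%, beside 3.07%). The pseudokinase Trib3 was at 1.60, 1.03 and 1.45 FPKM in controls and 1.71, 2.58 and 2.48 in the arrested libraries, higher and apart at a low level (limma adjusted p = 0.89). Stc2, a secreted stanniocalcin, was lower and apart, at 24.5, 26.4 and 26.1 FPKM and then 12.6, 20.5 and 19.8 (-0.55 ± 0.18, limma adjusted p = 0.89), and Ddit4 was the other. Atf3 overlapped (1.34, 1.5 and 2.59 FPKM, then 1.72, 4.11 and 1.93), and Chac1 was below the filter, at 0.193, 0.561 and 0.563 FPKM in controls and 0.683, 0.971 and 1.71 in the arrested libraries. Cytosolic and mitochondrial heat shock genes had 12 of 21 higher (median 0.07) and 0 apart in both measures. Hspa8, the constitutive HSP70, was at 2294, 2054 and 2571 FPKM in controls and 2307, 2228 and 2072 in the arrested libraries.

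Genes of ER targeting, a process in which Ubl4 acts, gave a further case in which the 2 measures differed. The list, which did not hold Ubl4, had 10 of 23 tested members higher and 13 lower (median -0.01). In both measures, 1 was higher and apart (4.35%, beside 2.01% of all genes) and 2 lower and apart (8.7%, beside 3.07%). Asna1, the ATPase that receives tail-anchored proteins from the Ubl4 complex, was at 52.5, 48.6 and 57.0 FPKM in controls and 37.4, 34.0 and 29.0 in the arrested libraries (-0.64 ± 0.14, limma adjusted p = 0.65). Its exon coverage was 52.5, 48.6 and 57.0 and then 65.3, 47.9 and 51.1. Sec61a1, the pore of the ER translocon, was lower, at 94.5, 98.9 and 104 FPKM and then 85.3, 79.5 and 87.0 (-0.24 ± 0.10, limma adjusted p = 0.89). Exon coverage of Sec61a1 was close to a fixed fraction of its FPKM, so it was no second measure. Sgta was lower and apart in both measures (46.6, 38.8 and 40.4 FPKM, then 10.4, 35.5 and 37.1, limma adjusted p = 0.89). Get4 was higher and apart in FPKM alone (21.6, 29.5 and 24.4, then 32.4, 33.9 and 32.3, limma adjusted p = 0.89).

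Hemoglobin transcripts, which come from blood, were higher after arrested embryo medium in every library. Hba-a1 was at 333, 386 and 532 FPKM in controls and 1368, 1892 and 795 in the arrested libraries (1.63 ± 0.60, limma adjusted p = 0.89). Hbb-b2 was at 116, 114 and 191 FPKM and then 445, 595 and 265 (1.59 ± 0.58, limma adjusted p = 0.89), and Alas2, the enzyme that starts heme synthesis in red cell precursors, at 3.19, 2.03 and 3.40 and then 8.47, 11.3 and 4.24. All 5 tested erythroid markers were higher and apart in both measures (median 1.59), beside 2.01% of all genes. Leaving out an arrested library cannot end such a separation, so it was no check of it. The medians without arrested library 1, 2 or 3 were 1.54, 1.33 and 1.91. The summed FPKM of the erythroid markers was 937 to 1501 in controls and 2092 to 4843 in the arrested libraries. Competent libraries 1 and 2 were also high, at 3968 and 2478, and library 3 was at 748. The red cell anion exchanger Slc4a1 was at most 0.631 FPKM in the 6 libraries. The copies of the alpha and of the beta globin genes share reads, so values of single copies are uncertain.

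Several other cell type lists differed in direction or size with the library left out. Smooth muscle markers were lower in 12 of 13 tested (median -0.56), with sums of 3569, 3708 and 3696 FPKM in controls and 2104, 4686 and 2100 in the arrested libraries. Without arrested library 1 they divided 6 higher to 7 lower (median -0.10). All 13 were lower without arrested library 2 (median -0.99) or 3 (median -0.34), and without library 2, 9 of 13 (69.2%) were lower and apart in both measures, beside 9.08% of all genes. Macrophage markers were lower in 11 of 11 tested (median -0.48), with sums of 397, 285 and 578 FPKM and then 360, 416 and 226. Adipocyte markers were higher in 13 of 13 (median 0.89), but in 8 of 13 without arrested library 2 (median 0.05). Mesothelial markers, from the outer surface of the horn, were higher in 5 of 6 (median 0.79). With all 3 arrested libraries, 0 members of these 4 lists were apart in both measures. Without arrested library 1, 8 of 13 adipocyte and 5 of 6 mesothelial members were higher and apart, beside 6.34% of all genes. Eosinophil markers summed to 118, 126 and 133 FPKM in controls and 116, 76.6 and 52.7 in the arrested libraries, with 2 tested and both lower. Skeletal muscle markers summed to 83.3, 93.1 and 67.0 FPKM in controls and 47.5, 66.5 and 23.8 in the arrested libraries, with 3 tested, all lower (median -1.41, and -0.27 without arrested library 3). Mast cell markers summed to 35.5, 25.2 and 20 FPKM in controls and 38.8, 48.2 and 162 in the arrested libraries, with 2 of 6 higher. The sums of these 3 lists did not overlap between the groups. Most of the eosinophil sum was Alox15 (113, 122 and 127 FPKM in controls, then 110, 69.9 and 50.7), also a member of the progesterone list. Most of the mast cell sum was Hdc, also a member of the implantation list. These 2 sums therefore follow single genes. Neutrophil markers were near the floor, with sums of 4.80 to 38.9 FPKM in controls and 5.28 to 11.4 in the arrested libraries. The oviduct glycoprotein gene Ovgp1 was listed at 0 in 8 libraries and at 40.5 FPKM in arrested library 3, the library in which Cyp26a1, Hdc, Coch and Wnt11 were highest. The part of these tissue differences in the results above was not tested.

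**Figure D5:**
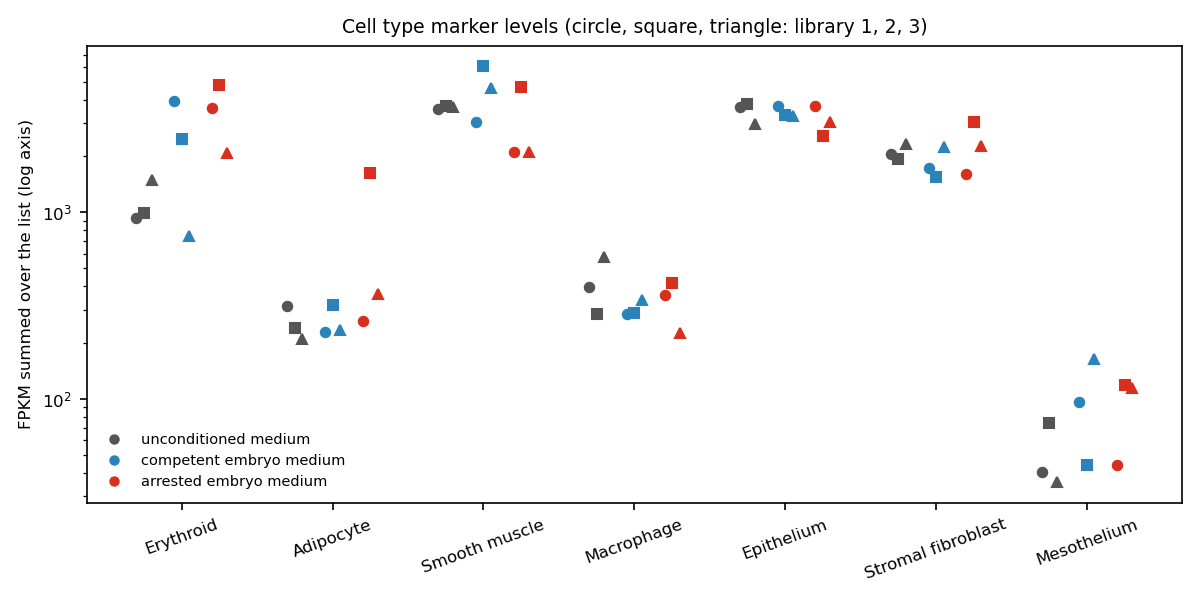
FPKM summed over the markers of 7 cell types in each library (log axis, symbols for library number). The erythroid sums of the arrested libraries all lie above those of the controls, the adipocyte sum stands out in arrested library 2, and the smooth muscle sums of arrested libraries 1 and 3 lie below the rest.

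Cytosolic ribosomal protein genes were higher in 36 of 38 after arrested embryo medium, by a small amount (median 0.16), with 0 apart in both measures. Without arrested library 1 the list divided 20 to 18 (median 0.00). Mitosis genes were 14 higher and 12 lower (median 0.02), a split that single libraries moved. Without arrested library 1, 25 of 26 were higher (median 0.35). Without arrested library 2, 22 of 26 were lower (median -0.42) and 8 (30.8%) were lower and apart in both measures, beside 9.08% of all genes. Of 15 tested arginine and polyamine enzymes, 8 were higher and 7 lower (median 0.05). In both measures, 1 was higher and apart (6.67%, beside 2.01% of all genes) and 2 lower and apart (13.3%, beside 3.07%). The polyamine oxidase Paox was at 24.6, 32.2 and 46.9 FPKM in controls and 67.0, 50.7 and 129 in the arrested libraries (1.16 ± 0.35), and the urea cycle enzymes Ass1 (17.3, 15.9 and 37.0, then 12.8, 12.2 and 5.0) and Arg1 (24.4, 27.1 and 27.3, then 10.1, 10.3 and 15.9) were lower and apart (limma adjusted p = 0.89 for each of the 3).

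Against competent embryo medium, 17 genes passed the threshold by limma (0.127%), beside 5 between competent embryo medium and control. These comparisons share the arrested and the control libraries with the one described here, so values are given side by side. Arrested minus competent differences were -1.80 ± 0.18 for Muc4 (limma adjusted p = 0.015), -2.11 ± 0.25 for Lcn2 (0.033), -1.27 ± 0.15 for Ddit4 (0.037) and 1.83 ± 0.19 for Cd83 (0.016). Against control the same genes differed by -1.22, -1.39, -0.91 and 0.89. Ubl4 and Gtf3c2 differed from control by -1.5 and -0.79 and from competent embryo medium by 0.17 ± 0.14 and -0.03 ± 0.16. The estradiol list had a median of -0.69 against competent embryo medium and -0.35 against control, the chaperones -0.08 and -0.04, and the mitosis genes -1.22 and 0.02.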

How the data were processed

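RNA of mouse uterus was sequenced in 9 libraries (TruSeq, 1 µg RNA, per the labels' protocols). The authors used Bowtie 0.12.2, the mm9 build and Cufflinks to reach FPKM, per the submitters' processing notes; which version of Cufflinks was not given in the sources used here. Their deposited files give FPKM per transcript and coverage (read depth, a signal) per transcript and exon. FPKM was summed here over annotated transcripts of a gene. Exon coverage was averaged over the union of its exons and scaled to FPKM units. Read numbers are not known, so no counting interval is given. The test was limma 3.58.1 in R 4.3.3 with an intensity trend on log2(FPKM + 1), over all 9 libraries with group means (8.07 degrees of freedom), with Benjamini-Hochberg adjustment over 13350 genes and a threshold of 0.05. Tables and figures used Python 3.11.15, pandas 2.3.3, numpy 2.4.6 and matplotlib 3.10.9. Gene positions are those of NCBIM37 (mm9), and promoters are RefSeq's on GRCm38.p6.

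The genes, lists and tests were chosen with earlier results of these data known. Named were the genes past the threshold with groups that do not overlap, places filled by genes of smallest unadjusted p with a mean of at least 5 FPKM and groups that do not overlap, members of smallest p of each list, and fixed genes of ER stress, hormone response and implantation. A gene with nothing but an identifier was counted without being named. Alternatives covered scaling, pseudocount, filters, transcripts summed, moderation, a replicate block and leaving out each library.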

Additional observations from a re-analysis of the deposited data

How the results depend on the processing

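The count of 7 genes past the threshold (limma) was between 5 and 10 with another pseudocount, filter, scaling or moderation, with the 6 libraries alone, with protein-coding genes alone, with assembled transcripts added and with exon coverage. It was 1 with no gene listed at 0, 3 with the transcript of highest mean alone, and 0 in exon coverage with no gene at 0 (849 at an unadjusted p under 0.05), an alternative chosen after seeing the data. Leaving out 1 library gave 7 to 25 genes: 24, 16 and 16 without control library 1, 2 or 3, and 18, 21 and 25 without arrested library 1, 2 or 3, and in each of these 6 fits all 7 genes were shared. The replicate numbers did not pair the samples (correlations 0.067, -0.041 and 0.047), and the replicate block gave 5 genes. Prkcd reversed to -0.06 with assembled transcripts added and to -0.15 in exon coverage, with or without genes at 0, and Ubl4 to 0.32 with the transcript of highest mean. The cause was not tested. Of the other values, 544 for named genes kept their direction and side of the threshold, 9 lost the threshold and 6 passed it. Of list medians, 1029 moved by less than the spread and 13 by more. Depth in reads is unknown, and with 3 libraries a group the median standard error of a difference was 0.28.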
